A study of Rattus norvegicus with 87 samples.

Results

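The lateral habenula (LHb) of outbred Heterogeneous Stock rats was compared between animals whose dissection held much and animals whose dissection held little RNA of Prkcd, the gene of protein kinase C delta. Rats were ranked by the log2 value of Prkcd within their rat batch, and the highest floor(n/3) rats of each batch (Prkcd-high) were compared with the lowest floor(n/3) (Prkcd-low). This gave 26 Prkcd-high and 26 Prkcd-low rats among the 80 rats of batches 2, 3, 4 and 6. The 28 rats between them were set aside, and the single rat of batch 5 entered no comparison. A column of values was held for 81 of the 87 samples in the labels, and the authors had removed the other 6. Each library was polyadenylated RNA from both sides of 1 rat, taken with forceps from frozen sections. All rats, in both groups, were naive to behavioural tests and drugs, and were group housed. The labels name no engineered allele, and ages are not in the labels used here. Prkcd-high rats were 13 males and 13 females, and Prkcd-low rats were 18 males and 8 females.

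PKC delta is a serine/threonine kinase that is switched on by diacylglycerol, the membrane lipid that phospholipase C releases when receptors coupled to Gq are active. The LHb is an epithalamic nucleus of glutamatergic neurons that lies on top of the thalamus. Relay nuclei of the thalamus are known for abundant Prkcd RNA, so Prkcd is often read as a thalamic gene in tissue from this part of the brain. In bulk tissue, fewer cells of a type and less RNA per cell cannot be told apart.

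The values were log2(normalized count + 1), where a normalized count is the authors' upper quartile adjusted read estimate of a gene. Scaled totals ranged from 16.2 to 20.2 M normalized counts over the 80 rats, where M is 1000000. The number of genes listed at 0 had a median of 485.5 in Prkcd-high rats (374 to 1491) and of 549 in Prkcd-low rats (296 to 1661). A gene symbol was held for 3280 of the 17511 genes tested (18.7%), nearly all of them genes with an expression quantitative trait locus in some brain region of the study. Counts over all genes therefore use identifiers, and the genes named below are a selected subset.

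Promoter sequences are shown for Prkcd and 4 of the genes that rose most clearly with it, since their values moved together over the rats. They are RefSeq sequences of the GRCr8 build, 250 bases before to 50 bases after the annotated start, 5′ to 3′, whereas the reads had been assigned on Rnor_6.0. Capitals mark matches on either strand to GGGCGG (the GC box bound by SP and KLF factors) or AGGTCA (the half-site of nuclear receptors), and overlapping matches run together.
Prkcd (chr16:5805790-5806089, minus strand): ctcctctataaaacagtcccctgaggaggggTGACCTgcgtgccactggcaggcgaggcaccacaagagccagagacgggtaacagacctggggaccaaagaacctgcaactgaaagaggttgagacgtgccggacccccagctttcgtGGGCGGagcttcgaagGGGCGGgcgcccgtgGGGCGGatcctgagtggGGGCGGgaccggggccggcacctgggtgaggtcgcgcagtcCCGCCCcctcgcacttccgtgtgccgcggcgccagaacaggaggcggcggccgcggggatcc
Gabrd (chr5:171252660-171252959, minus strand): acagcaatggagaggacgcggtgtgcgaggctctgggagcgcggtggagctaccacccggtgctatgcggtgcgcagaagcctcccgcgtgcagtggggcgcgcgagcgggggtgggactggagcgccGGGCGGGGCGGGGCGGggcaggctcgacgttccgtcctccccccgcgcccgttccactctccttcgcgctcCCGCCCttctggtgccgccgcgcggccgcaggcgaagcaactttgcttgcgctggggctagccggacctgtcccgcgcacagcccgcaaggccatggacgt
Cacna2d3 (chr16:4918850-4919149, minus strand): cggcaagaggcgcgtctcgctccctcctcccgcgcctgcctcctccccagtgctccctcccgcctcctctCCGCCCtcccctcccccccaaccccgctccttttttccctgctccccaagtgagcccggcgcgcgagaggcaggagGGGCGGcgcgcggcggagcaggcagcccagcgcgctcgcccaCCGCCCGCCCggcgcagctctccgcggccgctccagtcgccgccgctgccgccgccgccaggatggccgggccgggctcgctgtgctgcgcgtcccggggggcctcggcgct
Ptpn3 (chr5:76821172-76821471, minus strand): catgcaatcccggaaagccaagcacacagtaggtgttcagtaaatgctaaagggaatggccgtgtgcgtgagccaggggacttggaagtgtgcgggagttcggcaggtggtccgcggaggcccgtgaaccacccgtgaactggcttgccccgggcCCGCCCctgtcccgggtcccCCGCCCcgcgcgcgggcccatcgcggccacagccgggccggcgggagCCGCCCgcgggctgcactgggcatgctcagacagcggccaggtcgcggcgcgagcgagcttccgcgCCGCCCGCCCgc
Ntng1 (chr2:200514982-200515281, minus strand): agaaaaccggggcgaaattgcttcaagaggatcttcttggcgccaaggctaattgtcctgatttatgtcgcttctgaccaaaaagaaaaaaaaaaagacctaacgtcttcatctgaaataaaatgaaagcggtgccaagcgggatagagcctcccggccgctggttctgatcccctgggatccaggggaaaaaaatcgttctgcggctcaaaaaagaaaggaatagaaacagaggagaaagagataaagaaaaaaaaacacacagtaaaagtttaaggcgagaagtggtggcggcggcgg

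The Prkcd promoter held 5 GC boxes and 1 nuclear receptor half-site. Gabrd and Cacna2d3 each held 4 GC boxes, Ptpn3 held 5 and Ntng1 held none. CTTTGA, the core letters of TCF/LEF sites, was searched as well and was found in none of the 5. A GC box was present in 34.9% of all 27457 promoters of the table and in 59.8% of the 2407 promoters of named genes. It was present in 57 of 91 (62.6%) named genes that rose with Prkcd and in 12 of 21 (57.1%) that fell. The half-site was present in 15.7% of all promoters and 11.8% of those of named genes, in 9 of 91 (9.89%) of the named genes that rose and in 7 of 21 (33.3%) of those that fell. CTTTGA was present in 15.9% of all promoters and 11.8% of those of named genes, in 11 of 91 (12.1%) of those that rose and in 2 of 21 (9.52%) of those that fell. These shares are descriptions of letters, without a test.

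Prkcd itself was the gene on which the rats were chosen, so its levels are a description. Prkcd-low rats had log2 values between 7.59 and 10.16, with a median of 8.77. Prkcd-high rats had values between 9.16 and 12.18, with a median of 10.14. These ranges overlapped because the batches had different levels. For batch 2 the Prkcd-low rats had log2 values of 9.06, 9.58, 9.81, 9.89 and 9.90, and the Prkcd-high rats had 10.78, 11.20, 11.28, 12.02 and 12.16. For batch 6 the Prkcd-low rats had 7.59, 7.78, 8.09, 8.23 and 8.34, and the Prkcd-high rats had 9.16, 9.17, 9.24, 9.45 and 9.46. All 5 Prkcd-high rats of batch 6 were thus below the median Prkcd-low rat of batch 2, so a rank within a batch is not an absolute level. The mean log2 difference between the groups was 1.84 in batch 2 and 1.95 in batch 3, whereas batch 4 had 1.32 and batch 6 had 1.29. These are 3.58-fold, 3.87-fold, 2.50-fold and 2.44-fold.

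At the edges of the groups the rats were close. In batch 3 the lowest Prkcd-high rat had 1799 normalized counts and the highest rat set aside had 1798. In batch 4 the highest Prkcd-low rat and the lowest rat set aside both had 520, a tie that the rats' replicate numbers decided. The single rat of batch 5 had 731.

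**Figure D1:**
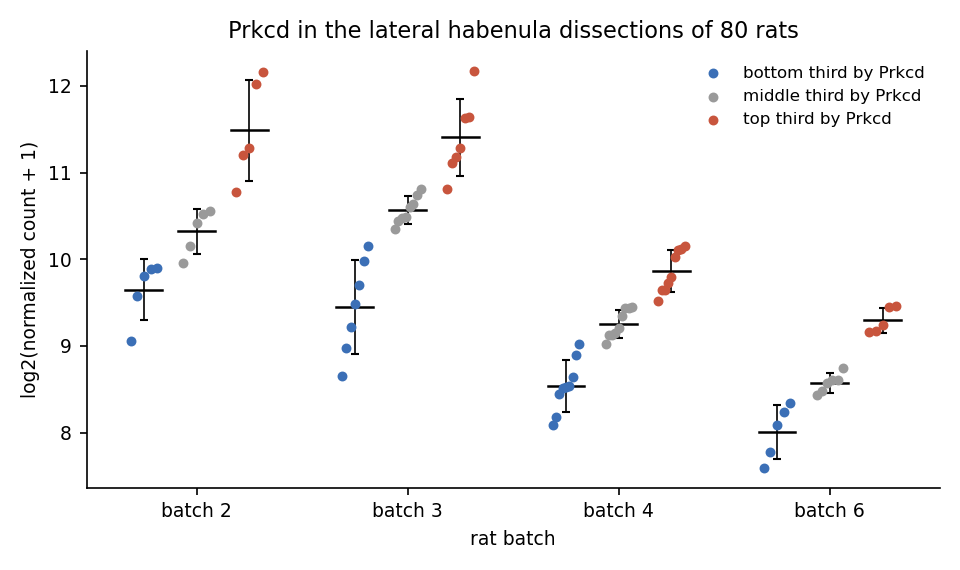
Log2(normalized count + 1) of Prkcd (vertical axis) in each of the 80 rats, by rat batch (horizontal axis), for the Prkcd-low (blue), set aside (grey) and Prkcd-high (red) rats, with the mean and SD of each set as black bars. The sets do not overlap within a batch, beyond 1 tie in batch 4, because the rats were ranked by this value, and batches 4 and 6 lie lower than batches 2 and 3.

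Across all genes other than Prkcd, 472 of 17511 (2.70%) were higher in Prkcd-high rats and 191 (1.09%) were lower, together 663 (3.79%), at an adjusted p under 0.05 in limma with batch as a covariate. The genes that rose moved further than the genes that fell. Their log2 difference had a median of 0.34 and reached 1.92, and 30 of them exceeded 1. The genes that fell had a median of -0.20 and a lowest value of -0.56, and none fell below -1. The median over all genes tested was 0.0008. These are differences between libraries chosen by a gene of those same libraries, so any property that the libraries share with Prkcd enters them. Among genes with a symbol, 131 of 3280 (3.99%) rose and 29 (0.884%) fell.

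**Figure D2:**
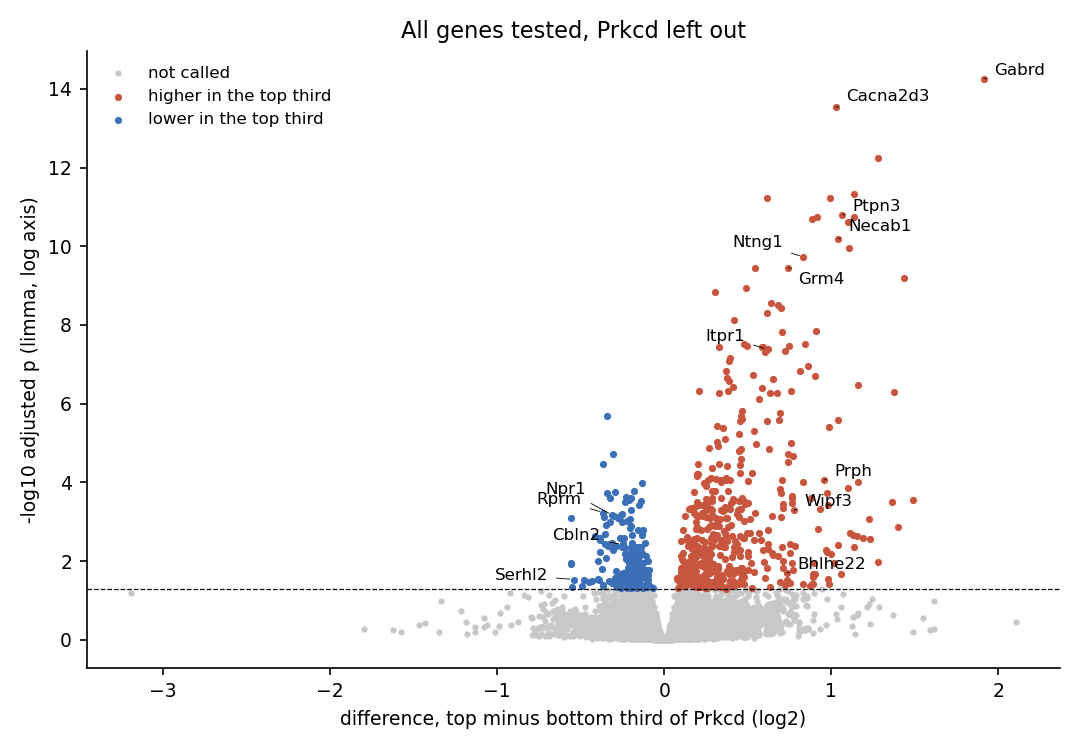
Difference in log2(normalized count + 1) between Prkcd-high and Prkcd-low rats (horizontal axis) against the -log10 of limma's adjusted p (vertical axis) for all 17511 genes without Prkcd, with the threshold of 0.05 as a dashed line. The 472 genes that rose reach 1.92 with Gabrd, and the 191 that fell reach -0.56.

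The separation was complete for only a few genes. In each of the 4 batches, every Prkcd-high rat lay above every Prkcd-low rat for 5 of 17511 genes (0.0286%), and every Prkcd-high rat lay below for 0 genes. The 5 were Gabrd, Ptpn3, Cacna2d3 and a pair of genes without a symbol here, ENSRNOG00000013867 and ENSRNOG00000027024. The named members of this set were picked out after their values were seen.

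Gabrd, which encodes the delta subunit of extrasynaptic GABA-A receptors that carry tonic inhibition, had the largest difference of the named genes. In batch 2, Prkcd-low rats had 64, 121, 129, 164 and 172 normalized counts and Prkcd-high rats had 358, 358, 391, 752 and 887. In batch 6, Prkcd-low rats had 16, 19, 20, 25 and 27, and Prkcd-high rats had 63, 72, 76, 79 and 114. Every Prkcd-high rat of these batches was above every Prkcd-low rat of its own batch. In batch 3 the Prkcd-low rats ranged from 56 to 209 with a median of 112, and the Prkcd-high rats from 324 to 777 with a median of 419. In batch 4 the same ranges were 21 to 70 (median 32) and 91 to 204 (median 118), again without overlap. The log2 difference was 1.92 ± 0.14 (SE, n = 26 and 26; adjusted p = 5.6e-15, limma), a 3.77-fold change on this scale. By batch it was 2.03, 2.05, 1.78 and 1.86 in batches 2, 3, 4 and 6.

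Cacna2d3, an auxiliary subunit of voltage-gated calcium channels, was similarly ordered. Prkcd-low rats of batch 2 had 265, 286, 309, 318 and 354 normalized counts and Prkcd-high rats had 460, 718, 779, 914 and 1026. In batch 6 the values were 144, 157, 191, 228 and 240 against 311, 333, 390, 392 and 412. The difference was 1.03 ± 0.08 on the log2 scale (adjusted p = 2.9e-14). Cacna2d3 lies on the same chromosome as Prkcd, with annotated starts 886.9 kb apart on GRCr8. Of the 10 named genes that start within 5 Mb of Prkcd, it was the only one that passed the test. Over all genes 3.79% passed, so a count of 1 in a set this short is near the background. Cacna2d3 had itself been picked by its values. The nearest of the 10, Mustn1, differed by -0.11 (adjusted p = 0.70). None of the 20 genes next to Prkcd in the annotation (10 on each side) had a symbol matched in the table.

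Ptpn3, a cytoplasmic protein tyrosine phosphatase, had a difference of 1.07 ± 0.10 (adjusted p = 1.6e-11). Its Prkcd-high rats ranged from 1513 to 3926 normalized counts in batch 2 (median 2699) and from 681 to 824 in batch 6 (median 804). The Prkcd-low rats ranged from 777 to 1047 (median 1034) and from 366 to 608 (median 496). By batch the log2 difference was 1.48, 1.37, 0.78 and 0.74, so it was larger in batches 2 and 3, as that of Prkcd was. A test of whether the Ptpn3 difference varied between batches gave an adjusted p of 0.27 (unadjusted p = 0.0091, limma).

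The remaining large rises were spread over receptors, filaments, proteases and regulators. Prph, the neuronal intermediate filament peripherin, rose by 0.96 ± 0.17 (adjusted p = 8.8e-05). Adamts15, a secreted metalloprotease that cuts proteoglycans, rose by 0.84 ± 0.10. Wipf3, a regulator of the actin cytoskeleton, rose by 0.78 ± 0.15. Mrvi1, a partner of the IP3 receptor that cyclic GMP signalling targets, rose by 0.76 ± 0.10. Grm4, a presynaptic metabotropic glutamate receptor, rose by 0.74 ± 0.08. The transcription factor Bhlhe22 rose by 0.74 ± 0.20 (adjusted p = 0.020), with batch values from 0.24 in batch 3 to 1.63 in batch 6, and it lost its call without batch 2 or without batch 6. The unconventional myosin Myo7a rose by 0.70 ± 0.12. The groups of Prph, Wipf3 and Bhlhe22 overlapped in every batch.

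**Figure D3:**
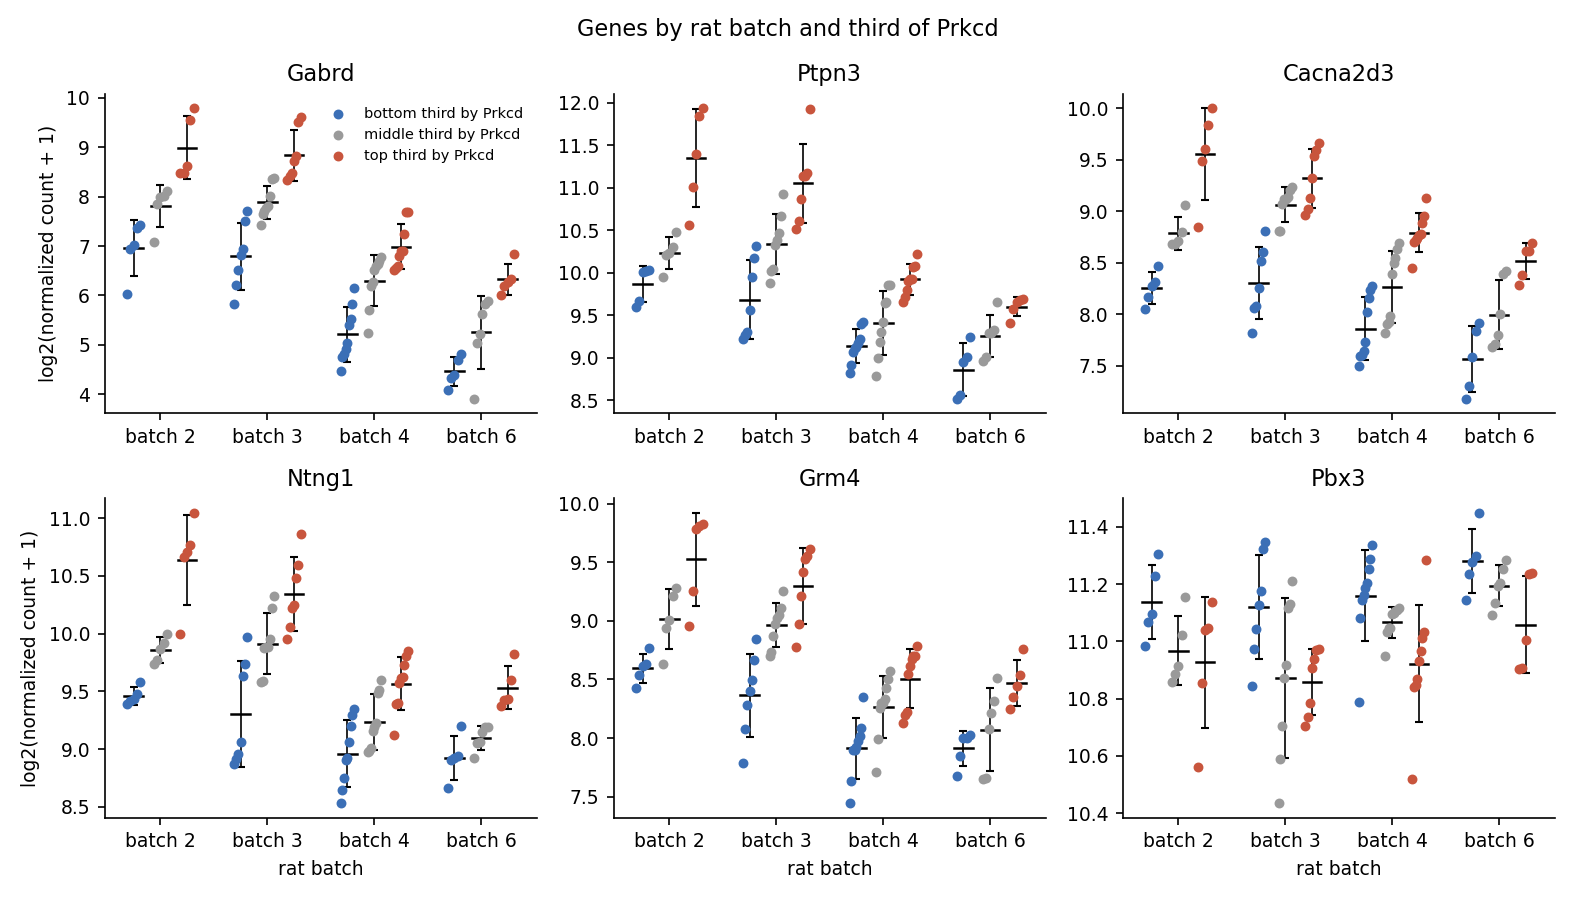
Log2(normalized count + 1) (vertical axes) of Gabrd, Ptpn3, Cacna2d3, Ntng1, Grm4 and Pbx3 in each of the 80 rats by rat batch (horizontal axes), for the Prkcd-low (blue), set aside (grey) and Prkcd-high (red) rats, with the mean and SD of each set as black bars. Gabrd, Ptpn3 and Cacna2d3 do not overlap between Prkcd-low and Prkcd-high rats in any batch, whereas Pbx3, which is lower in Prkcd-high rats, overlaps in all 4 batches.

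Genes used as markers of thalamic relay neurons were read next. A symbol was matched for 8 of the 26 on the list. Of the 8, 5 rose, 1 fell and 2 did not pass the test, where 2.70% of all genes rose and 1.09% fell, and the median difference was 0.19 against 0.0008 over all genes. Necab1, a calcium-binding protein of neurons, rose by 1.04 ± 0.10 (adjusted p = 6.5e-11). Its Prkcd-low rats ranged from 9.71 to 10.94 on the log2 scale in batch 4 (median 10.47) and its Prkcd-high rats from 11.27 to 11.72 (median 11.46). The groups of Necab1 did not overlap in 3 of 4 batches. In batch 3 they did, with 953 to 2844 against 2047 to 3980.

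Ntng1, the gene of netrin-G1 on thalamocortical axons, rose by 0.83 ± 0.08 (adjusted p = 1.9e-10). In batch 2, Prkcd-low rats had 669, 682, 690, 712 and 767 normalized counts and Prkcd-high rats had 1023, 1620, 1668, 1744 and 2117. In batch 6 they had 405, 478, 484, 491 and 587 against 662, 685, 689, 776 and 907, without overlap. In batches 3 and 4 the groups of Ntng1 overlapped. Cacna1g, the T-type calcium channel behind thalamic burst firing, rose by 0.33 ± 0.07 (adjusted p = 0.0013). Plcb4, a Gq-coupled phospholipase C, rose by 0.27 ± 0.06 (adjusted p = 0.0014). Slc17a6, the vesicular glutamate transporter that both thalamic relay and LHb neurons use, rose by 0.12 ± 0.03 (adjusted p = 0.043).

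Not every listed gene went up. Lhx9, a LIM homeodomain factor, fell by 0.18 ± 0.05 (adjusted p = 0.039). The zinc finger factor Zic4 differed by -0.08 (adjusted p = 0.59) and the forkhead factor Foxp2 by 0.10 (adjusted p = 0.71). The calls of Slc17a6 and Lhx9 were lost without any one of batches 2, 4 and 6. The 18 other genes of the list were not analysed here for want of a symbol. The description of these dissections as rich in thalamic transcripts therefore rests on 5 genes, with 1 that moved the other way. Of the 5, Slc17a6 is used by LHb neurons as well. For these reasons the groups are called by Prkcd alone.

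Markers of the habenula itself were read as well. A symbol was matched for 2 of 10 LHb genes, of which 1 rose, where 2.70% of all genes rose. Their median difference was 0.20, beside the 0.19 of the relay genes. Pcdh10, a protocadherin, was detected in every rat and differed by 0.01 ± 0.06 (adjusted p = 0.97). Syn2, a synaptic vesicle protein present in many neurons, rose by 0.38 ± 0.05 (adjusted p = 4.8e-07). Of 4 of 12 medial habenula genes matched, 1 rose, again beside 2.70% of all genes, and their median difference was -0.05. The gene that rose was Spon1, an extracellular matrix protein, at 0.23 ± 0.05 (adjusted p = 0.00072). The nicotinic receptor subunit Chrnb4 differed by -0.13 ± 0.10 (adjusted p = 0.63), the acetylcholine-synthesizing enzyme Chat by -0.12 ± 0.11 (adjusted p = 0.71) and the calcium buffer Calb1 by 0.03 ± 0.07 (adjusted p = 0.93). The summed normalized count of the 4 ranged from 4349 to 8029 in Prkcd-high rats and from 4164 to 8296 in Prkcd-low rats.

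Markers of other tissues that a dissection could include did not pass the test. None of 5 hippocampal, 5 choroid plexus, 1 ependymal, 2 leptomeningeal, 2 pineal, 2 myelin, 1 oligodendrocyte precursor, 1 astrocyte, 3 microglial, 2 blood and 1 immediate-early gene was called, nor was Slc32a1, the vesicular GABA transporter. Over all genes 3.79% were called, so a count of 0 in lists this short is near the background. Their lowest adjusted p by list was 0.23 (hippocampus), 0.31 (Slc32a1) and 0.35 (myelin), and at least 0.68 for the others. The summed normalized count of the choroid plexus genes ranged from 3077 to 21506 in Prkcd-high rats (median 5283) and from 2960 to 15360 in Prkcd-low rats (median 6214.5). That of the myelin genes Mal and Opalin ranged from 9972 to 17888 (median 12282.5) against 9976 to 16337 (median 12557). That of the hippocampal genes ranged from 894 to 1470 (median 1146.5) against 801 to 1287 (median 1030). All 5 hippocampal genes had differences above 0, from 0.04 for Wfs1 to 0.29 for C1ql2, with a median of 0.17 beside the 0.19 of the relay genes, and the part of hippocampal tissue in the results was not tested. The pineal genes Asmt and Tph1 were at 0 in 1 and 3 rats, and Mia, the ependymal gene, in 3 rats. The summed normalized count of the pineal pair ranged from 2 to 1367 in Prkcd-high rats (median 16) and from 0 to 54 in Prkcd-low rats (median 17). Tph1 reached 10.32 on the log2 scale in a Prkcd-high rat, where the median of that group was 3.17. No endothelial gene had a matched symbol.

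**Figure D4:**
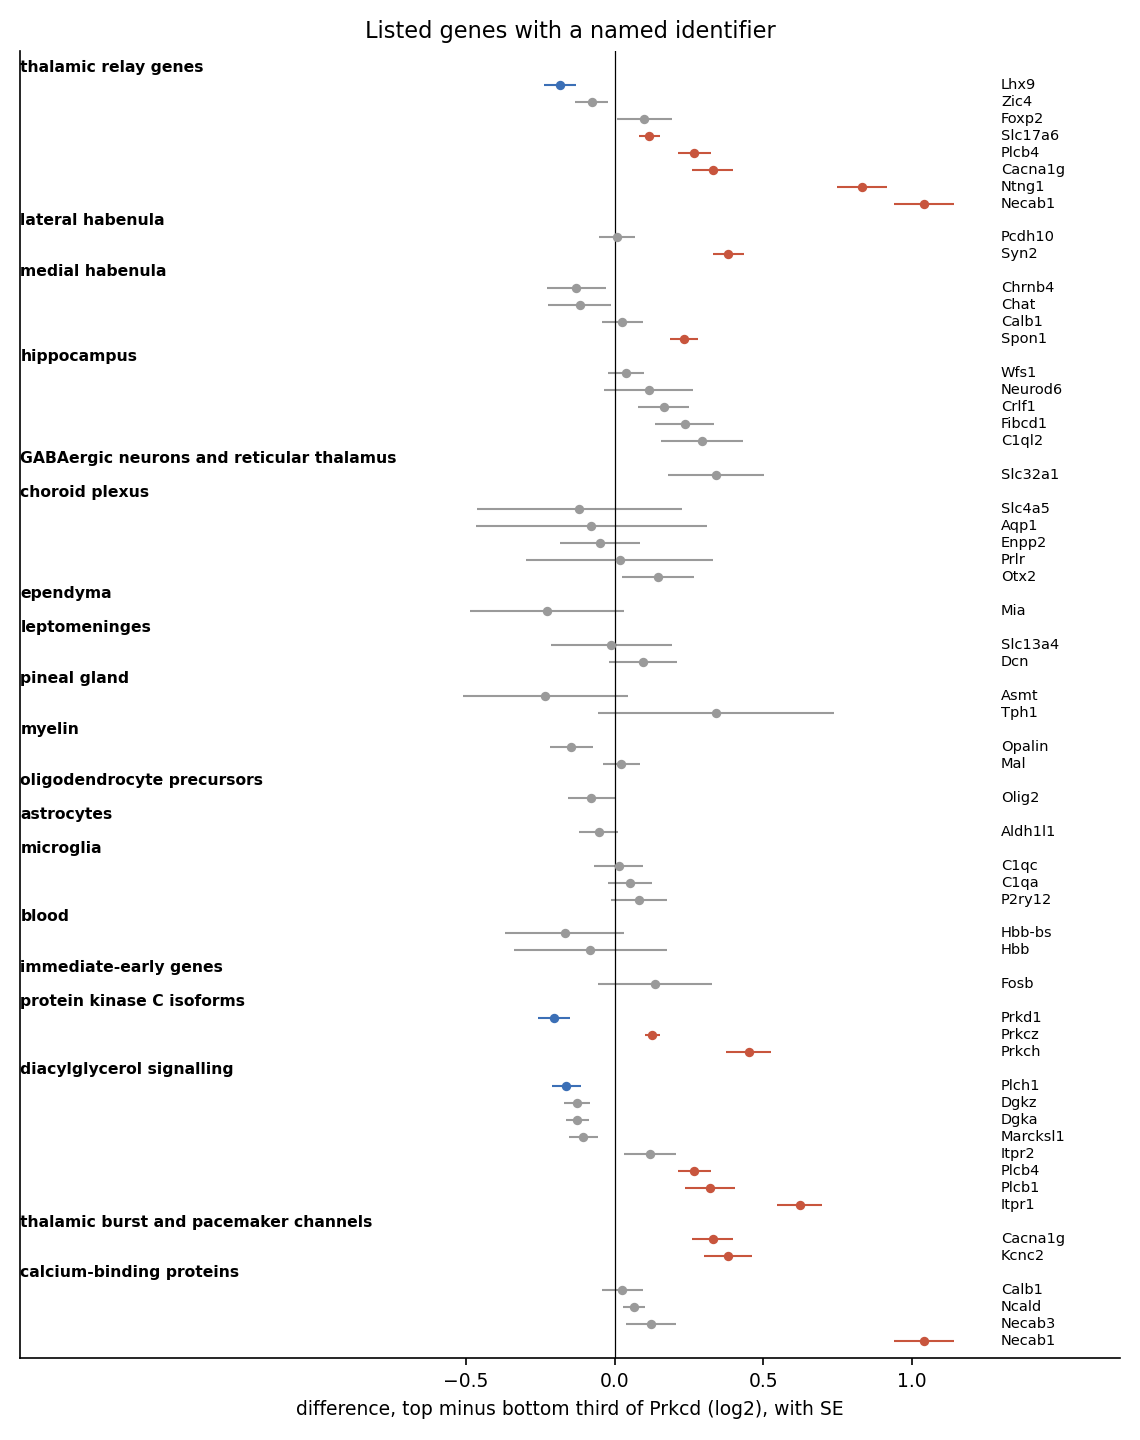
Log2 difference between Prkcd-high and Prkcd-low rats (horizontal axis, point with SE) of each listed gene that had a symbol, grouped by list, in red where it rose, in blue where it fell and in grey where it did not pass the test. The coloured points lie in the thalamic relay, habenular, protein kinase C, diacylglycerol, channel and calcium-binding lists, and the widest bars belong to pineal and choroid plexus genes.

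Among relatives of Prkcd, a symbol was matched for 3 of 10 genes, of which 2 rose and 1 fell, where 2.70% of all genes rose and 1.09% fell. The median difference of the 3 was 0.13, against 0.0008 over all genes. Prkch, the eta isoform, which like PKC delta needs diacylglycerol and no calcium, rose by 0.45 ± 0.08 (adjusted p = 5.8e-05). Prkcz, the atypical isoform that responds to neither, rose by 0.13 ± 0.03 (adjusted p = 0.00072). Prkd1, a diacylglycerol-binding kinase that PKC activates, fell by 0.20 ± 0.05 (adjusted p = 0.016). Prkcz lost its call without batch 2, and Prkd1 without any one of batches 2, 3 and 4.

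Along the diacylglycerol pathway, a symbol was matched for 8 of 31 genes, of which 3 rose (2.70% of all genes), 1 fell (1.09% of all genes) and 4 did not pass the test. The median difference of the 8 was 0.01, against 0.0008 over all genes. The phospholipases Plcb1 (0.32 ± 0.08, adjusted p = 0.016) and Plcb4 (above) rose, whereas Plch1 fell by 0.16 ± 0.05 (adjusted p = 0.038). Without any one of batches 3, 4 and 6 the call of Plcb1 was lost, and without any single batch that of Plch1. Itpr1, the receptor that releases calcium when it binds IP3, rose by 0.62 ± 0.08 (adjusted p = 4.2e-08). The diacylglycerol kinases, which remove the lipid, had values below 0 that missed the threshold, at -0.13 ± 0.04 for Dgka (adjusted p = 0.059) and -0.13 ± 0.05 for Dgkz (adjusted p = 0.12).

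Of 15 burst and pacemaker channels a symbol was matched for 2, and both rose, where 2.70% of all genes did. Beside Cacna1g, this was Kcnc2, a fast potassium channel, at 0.38 ± 0.08 (adjusted p = 0.0014). Its batch values of 0.64, 0.67, 0.23 and 0.01 covered a wide range (limma, variation between batches, adjusted p = 0.27, unadjusted p = 0.0097). Of 4 matched calcium-binding proteins out of 11, 1 rose, where 2.70% of all genes did. It was Necab1, already counted among the relay genes, and Necab3 (0.12), Ncald (0.07) and Calb1 did not pass the test.

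The differences of the genes that fell were small, and for most of those named the groups overlapped in every batch. The exceptions were Npr1, Myh7b, Lhx9, Prkd1 and Sytl2, each without overlap in 1 batch. Serhl2, a serine hydrolase-like gene, fell by 0.54 ± 0.15 (adjusted p = 0.029) and Tmem86b, a lysoplasmalogenase, by 0.45 ± 0.13 (adjusted p = 0.033). The fibrillar collagen Col2a1 fell by 0.40 ± 0.10 (adjusted p = 0.0098) and Col16a1 by 0.36 ± 0.07 (adjusted p = 0.00078). Rprm, which halts the cell cycle, fell by 0.36 ± 0.07 (adjusted p = 0.00059). In batch 6 the Prkcd-low rats ranged from 957 to 1253 normalized counts of Rprm (median 1055) and the Prkcd-high rats from 639 to 998 (median 887). The overlap of Rprm in that batch was between 957 and 998.

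Npr1, a natriuretic peptide receptor with guanylate cyclase activity, fell by 0.31 ± 0.06 (adjusted p = 0.00068). The enzymes Galt of galactose use and Nadsyn1 of NAD synthesis each fell by 0.29, as did the myosin Myh7b (adjusted p from 0.0042 to 0.038). Gpr52, an orphan receptor coupled to Gs, fell by 0.25 ± 0.05 and Cbln2, a secreted synapse organizer, by 0.25 ± 0.06. Pbx3, a homeodomain factor, fell by 0.24 ± 0.04 (adjusted p = 0.00032). Its batch 2 values were 2023, 2146, 2190, 2397 and 2533 normalized counts in Prkcd-low rats and 1510, 1851, 2104, 2115 and 2250 in Prkcd-high rats. Pbx3 overlapped in each batch, although its batch differences lay between -0.21 and -0.26. Without batch 4, the calls of Serhl2, Tmem86b, Col2a1, Col16a1, Galt, Nadsyn1, Myh7b and Cbln2 were lost, whereas those of Rprm, Npr1, Gpr52 and Pbx3 were kept without any single batch.

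The genes whose level ran closest to that of Prkcd were ranked by Pearson's r over the 80 rats after batch means had been taken away. Genes were taken for their high or low r, and all values come from the same libraries, so no p is given. Among named genes with a mean of 5 or more on the log2 scale, Ptpn3 and Gabrd had an r of 0.92 (Spearman's rho 0.92 and 0.93), Ntng1 0.90, Cacna2d3 0.88 and both Nsmf and Pdp1 0.85. Hrh3, Grm4 and LRRTM1 each had 0.84 and Necab1 0.83. Without the 2 rats farthest from the median of Prkcd, r was 0.91 for Ptpn3, 0.91 for Gabrd and 0.88 for Ntng1. Within single batches, r of Gabrd ran from 0.87 to 0.98 and that of LRRTM1 from 0.59 to 0.94.

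Of those not yet described, Nsmf, a messenger from synapse to nucleus, rose by 0.49 ± 0.05 between the groups. Pdp1, a phosphatase that turns on pyruvate dehydrogenase, rose by 0.53 ± 0.07. Hrh3, the presynaptic histamine H3 receptor, rose by 0.70 ± 0.08, and LRRTM1, a postsynaptic partner of neurexins, by 0.61 ± 0.07. At the other end stood Sytl2, a Rab27 effector in vesicle transport (r = -0.53), Itfg2, part of a complex that restrains mTORC1 (-0.53), Pbx3 (-0.53), Cbln2 (-0.52) and Rprm (-0.48). None of the negative values was as far from 0 as the 10 highest were.

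Most genes that passed the test had no symbol here, 341 of those that rose and 162 of those that fell. By the size of limma's statistic, the leading ones were ENSRNOG00000002336 (1.28 ± 0.11) and ENSRNOG00000012478 (1.14 ± 0.10) among those that rose. ENSRNOG00000002579 (-0.34 ± 0.05) and ENSRNOG00000008738 (-0.31 ± 0.05) led those that fell.

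Whether the differences held in other rats was read by calling genes in 2 batches and looking at them in the 2 others, which share no rat. Batches 2 and 3 gave 268 genes that rose (1.53%) and 16 that fell (0.0914%). In batches 4 and 6, 273 genes rose (1.56%) and 295 fell (1.68%). Of the 268, 253 (94.4%) were also higher in batches 4 and 6, against 49.3% of all genes, and 103 (38.4%) passed the test there. Of the 16, 15 were also lower, against 50.6% of all genes, and 3 passed. The size was smaller in the second pair of batches, with a median of 0.24 for the 268 genes that had a median of 0.60 in the first. Prkcd itself also differed less between the groups of batches 4 and 6, and the genes had been chosen in the first pair. The part of either in the smaller size was not tested. The 273 genes that rose in batches 4 and 6 had a median of 0.27 there and of 0.27 in batches 2 and 3.

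Read the other way round, genes that rose and genes that fell differed. Of the 273 genes that rose in batches 4 and 6, 208 (76.2%) were also higher in batches 2 and 3, against 52.3% of all genes. Of the 295 that fell there, 164 (55.6%) were also lower in batches 2 and 3, against 47.7% of all genes, and 3 (1.02%) passed the test. Their median difference was -0.25 in batches 4 and 6 and -0.01 in batches 2 and 3. No gene called in one pair of batches was called in the opposite direction in the other.

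**Figure D5:**
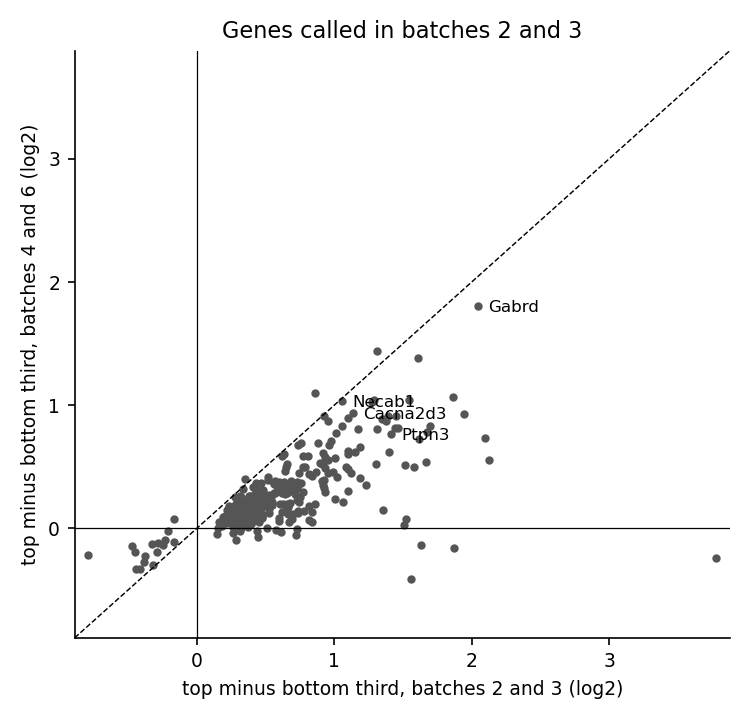
Log2 difference between Prkcd-high and Prkcd-low rats in batches 2 and 3 (horizontal axis) and in batches 4 and 6 (vertical axis) for the 284 genes called in batches 2 and 3, with the line of equal values dashed. Of the 268 that rose, 253 lie above 0 on the vertical axis, mostly below the line of equality, and 1 gene at 3.78 on the horizontal axis has -0.24 on the vertical.

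That gene, LOC689986, was singled out after its values were seen. Gabrd had 2.04 in batches 2 and 3 and 1.81 in batches 4 and 6, Cacna2d3 1.13 and 0.94, and Necab1 1.05 and 1.03. Single batches made fewer calls. Batch 2 alone gave 72 genes that rose and 1 that fell, batch 3 gave 25 and 0, batch 4 gave 117 and 197, and batch 6 gave 6 and 1.

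The 28 rats set aside give a further reading, since the comparison did not use them. Within these rats the log2 value of each gene was fitted on that of Prkcd, with batch as a covariate. No gene passed limma's adjusted threshold, and 1638 of 17511 (9.35%) had an unadjusted p under 0.05. Of the 472 genes that rose, 362 (76.7%) had a slope above 0, against 52.6% of all genes. Of the 191 genes that fell, 66 (34.6%) had a slope below 0, against 47.4% of all genes. Their median slope was 0.08, against 0.03 over all genes, so most of them did not fall with Prkcd in these rats. An unadjusted p under 0.05 (limma) with the sign of the comparison was found for 79 of the 472 and 2 of the 191. Ptpn3 had a slope of 1.40 log2 units per log2 unit of Prkcd (unadjusted p = 5e-06) and Gabrd one of 1.61 (unadjusted p = 0.0034). Ntng1 had 0.69 (unadjusted p = 0.0026). Sytl2, which fell between the groups, had a slope of 0.39 in these rats (unadjusted p = 0.012, limma). Of the 12 named genes that rose most, 9 had a slope above 0. The other 3 were Prph (-0.43), Bhlhe22 (-0.27) and Myo7a (-0.10), and Itpr1 had -0.07, each within its error. Of the 12 named genes that fell most, 7 had a slope below 0.

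The difference varied between batches for 21 genes in limma's interaction test, and 3 of the 21 were among the 663. Before adjustment, 2039 genes (11.6% of those tested) had a p under 0.05 in that test. For sex, no gene passed limma's interaction test (812 at an unadjusted p under 0.05, 4.64% of those tested). That test had 8 Prkcd-low females, and no Prkcd-high female in batch 2. Of the 75 genes picked by size, list or correlation, 43 passed the test, and 42 of these had the same sign in all 4 batches. The exception was Myh7b, at 0.14 in batch 3 and -0.71 in batch 4. Of the 43, 27 passed the test without any single batch.

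Sex, the run in which a rat's column stands in the table and genes listed at 0 differed between the groups. Runs 1, 2 and 3 held 10, 2 and 14 Prkcd-high rats and 6, 5 and 15 Prkcd-low rats. Batch 2 lay wholly in run 1 and batches 4 and 6 in run 3, so runs were mixed only within batch 3. In batch 2 all 5 Prkcd-high rats were male, against 4 of 5 Prkcd-low rats. In batch 3 the males were 2 of 7 Prkcd-high against 5 of 7 Prkcd-low rats, and in batch 4 they were 3 of 9 against 6 of 9. Batch 6 had 3 of 5 in each group. With sex as a covariate 432 genes rose and 185 fell. With the column run as a covariate 420 rose and 276 fell, among them 376 of the 472 and 153 of the 191. With genes listed at 0 as a covariate it was 476 and 230. With the summary levels of the medial habenula, choroid plexus and myelin lists as covariates 470 rose and 258 fell. With 20 expression components as covariates 0 genes were called in limma (1228 at an unadjusted p under 0.05). These components hold 80.1% of the variation in group membership within batches, so 19.9% of it was left to test. The difference of Gabrd was then 1.28 ± 0.28 (adjusted p = 0.40) and that of Cacna2d3 0.52 ± 0.15 (adjusted p = 0.45). Without batch 3, whose Prkcd-low rats included 3 with 1491, 1578 and 1661 genes listed at 0, 554 genes rose and 580 fell.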

How the data were processed

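RNA-Seq of polyadenylated RNA from the LHb of 81 rats was analysed. According to the study's methods, reads were 100 bp single-end, were trimmed with cutadapt, and were counted per gene with RSEM. The authors used DESeq2 for the upper quartile adjustment, and they dropped weakly expressed genes. They also dropped libraries with few reads, with a mismatched genotype or with outlying expression in a principal component analysis. The submitters' processing notes name Rnor_6.0. Versions of these tools are not given in the sources used here. The deposited values are log2 of the adjusted count plus a pseudocount of 1, and 100% of the values under 100 gave whole numbers within 0.01 after this was undone, so the authors had rounded them. The table gives no raw depth, so its counting error is unknown. Because of the pseudocount, changes of weakly expressed genes are understated on this scale.

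Prkcd-high and Prkcd-low rats were ranked within rat batches 2, 3, 4 and 6, as the labels give them. Genes were tested with limma 3.58.1 (lmFit, eBayes with trend) in R 4.3.3, with batch as a covariate, two-sided or as F-tests, and Benjamini-Hochberg adjustment over 17511 genes without Prkcd at a threshold of 0.05. The fit was tried on simulated data with independent noise for each gene and fixed groups. That setting leaves out the choice of rats by Prkcd and the co-variation of genes in the real libraries. The labels tie each sample to 1 rat. Python 3.11.15 with numpy 2.4.6, pandas 2.3.3 and scipy 1.17.1 made the summaries, and matplotlib 3.10.9 the plots.

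The files hold Ensembl identifiers only. Symbols came from identifier and name pairs in the study's supplementary tables of quantitative trait loci (names only), which matched 3280 genes (18.7%). The shown tables were partial, so a missing symbol says nothing of a gene. Of the genes named, Otx2 had a row identical to that of another gene.

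The genes named were those with a symbol that passed the test and averaged 5 or more on the log2 scale, namely the 12 largest differences in each direction. To these were added the relay, habenular and protein kinase C lists whole, up to 4 genes of each other list by test statistic, and the 10 highest and 5 lowest correlations with Prkcd. One gene that this rule takes in is not reported here. The members, lists and tests were chosen with earlier results of these data known. Alternatives are given in the closing section. Promoter sequences were matched by symbol for 2407 of the 3280 named genes. The 6 samples removed by the authors and the rat of batch 5 were left out of the tests.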

Additional observations from a re-analysis of the deposited data

Results flagged for a closer look

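Within the Prkcd-high and the Prkcd-low rats of each batch, 64 sets of 5 to 9 values were searched for a rat far from the others (Prkcd, genes listed at 0, Gabrd, Cacna2d3, Ntng1, Necab1, Ptpn3 and Pbx3), of which chance alone would pick out about 1 in 20. There were 2. Rat 11 of batch 2, a Prkcd-low rat, had 296 genes listed at 0, and the other 4 of its set had 542 to 568. Rat 2 of batch 4, also Prkcd-low, had a log2 value of Pbx3 of 10.788, below the 11.083 to 11.336 of the other 8. This was the Prkcd-low rat of the tie at 520 normalized counts.

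For 21 genes the difference between Prkcd-high and Prkcd-low rats varied between rat batches in limma's interaction test. A symbol was held for 4 of them, and none of the 4 passed the pooled test. Ikbip differed by 0.22, -0.33, 0.22 and 0.01 in batches 2, 3, 4 and 6 (adjusted p for the interaction = 0.0495). Kcnt1, a sodium-activated potassium channel, differed by -0.20, 0.17, -0.37 and -0.11 (adjusted p = 0.0362). Icos, a costimulatory receptor of T cells, differed by -1.14, 0.78, -0.58 and 0.33 (adjusted p = 0.0349). A gene known only by a clone-based name differed by -0.79, 1.05, -0.37 and 0.15 (adjusted p = 0.0464). In all 4 genes, batch 3 had the opposite sign to batches 2 and 4, and its Prkcd-low rats held 3 libraries with over 1000 genes listed at 0, whose part in this was not tested.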

How the results depend on the processing

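The genes that rose with Prkcd were 2.70% of those tested, and this stayed within 1.5 times under all but 2 of the alternatives tried, at 0% with 20 expression components as covariates and 1.46% without batch 2. The genes that fell were 1.09%, which was less stable. It was 0% with 20 components, 0.560% when each batch was split at its middle rank, 0.428% without batch 2, 3.31% without batch 3, 0.291% without batch 4 and 0.720% without batch 6. After the data were seen, 2 further fits were added that moved it, at 1.66% without rats with over 1000 genes at 0 and 3.47% without batch 3 with sex as a covariate. The components hold most of the group membership, and fits without a batch use fewer rats. The cause of a changed share was not tested for any of these fits. Of the genes that fell in batches 2 and 3, 18.8% passed again in batches 4 and 6, against 1.02% when called in batches 4 and 6 and read in batches 2 and 3, and 1.18% for that reading among genes averaging 5 or more on the log2 scale.

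The 43 called genes among the 75 picked by size, list or correlation were followed singly. With 20 components, 6 of them changed sign, none past the threshold, namely Col16a1 (0.026), Col2a1 (0.14), Itfg2 (0.12), Prkch (-0.093), Slc17a6 (-0.020) and Tmem86b (0.025). The other 37 kept their sign and were no longer past the threshold. Slc17a6, Plch1, Prkd1, Lhx9, Serhl2, Tmem86b, Galt, Myh7b, Col16a1, Col2a1, Plcb1 and Bhlhe22 each lost their call in at least 2 other fits. A pseudocount of 8, the mean filter, the other scaling and robust eBayes changed none of the 43 calls. No paired analysis was possible because replicate numbers only name the rats. The table holds no raw depth, so no counting interval can be set on low values such as those of Gabrd in batch 6.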
